A study of Homo sapiens with 6 samples.

Results

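Amino acid transporters are the membrane carriers through which cells take up the building blocks of protein, and the 10 genes described here encode carriers of cationic, neutral and acidic amino acids in HEK 293T cells, a transformed human embryonic kidney line. They are SLC7A1, SLC7A2, SLC7A3, SLC7A5, SLC7A6, SLC7A8, SLC7A11, SLC3A2, SLC1A5 and SLC38A2, found by symbol among 30270 genes with estimated counts. They were chosen from results of the comparison reported here, since SLC7A3 was known from these libraries to be lost, and the others were added as carriers of related function. Their differences between the groups are therefore given as a description and carry no p-value. All 10 were among the 23952 genes with enough reads to be tested.

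TUT4 and TUT7 (also called TENT3A and TENT3B) add uridines to the 3′ ends of RNA, and the study asked how the transcriptome changes when both are deleted. Ribosomal RNA-depleted total RNA was sequenced from 3 wild-type libraries (WT) and 3 libraries labelled as the TENT3A/B double knockout, here ΔTUT4/7. Both groups are untreated HEK 293T cells grown in DMEM with fetal bovine serum. Per the study's methods the WT cells came from a culture collection and the knockout cells from another laboratory, so culture history and genotype cannot be told apart, and no source used here says how many knockout clones were sequenced. The labels call the 3 libraries of a group biological replicates.

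Libraries held 18757228 to 33148937 counts. TUT4 counts went against the label, at 211 ± 5.08 CPM (counts scaled to library size, SD, n = 3) in WT and 906 ± 21.4 CPM in ΔTUT4/7, whereas TUT7 had 62.6 ± 2.17 and 26.3 ± 1.04 CPM. Gene counts do not tell a deleted transcript from a whole one, so every direction below is that of the libraries labelled ΔTUT4/7 and rests on that label. All 4 genes listed as typical of this line were detected, but not at equal levels in the groups. VIM (vimentin) had 496 CPM in WT and 1250 in ΔTUT4/7, KRT18 30.5 and 44.3, KRT8 9.96 and 3.43, and PAX2 2.15 and 1.45. Their sum ran from 515 to 554 CPM in WT and from 1292 to 1306 in ΔTUT4/7. Summed over the 4 of 6 markers of other cell types in the table, the level was 4.63 to 5.11 CPM in WT and 0.979 to 2.04 CPM in ΔTUT4/7, most of it from MLANA. The part of these shifts in the results that follow was not tested.

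The carriers fall into 3 designs. SLC7A1, SLC7A2 and SLC7A3 (CAT-1, CAT-2 and CAT-3) are stand-alone carriers of arginine, lysine and ornithine. SLC7A5, SLC7A6, SLC7A8 and SLC7A11 are light chains that reach the cell surface only when bound to a glycoprotein heavy chain, SLC3A2, and then exchange an amino acid inside the cell for another outside. SLC1A5 (ASCT2) and SLC38A2 (SNAT2) depend on sodium and carry glutamine and other small neutral amino acids, some of which the light-chain exchangers then spend. SLC1A5 is itself an exchanger. Several of these genes are known targets of ATF4, the transcription factor made when the kinase GCN2 senses uncharged tRNA.

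ATF4 and its partners bind a short element, searched here as TGATGNAA on both strands of RefSeq promoter windows (GRCh38.p14, 250 bases before to 50 after each start). It was looked for because ATF4-responsive genes differed between the groups, as given further on. Windows were found for 7 of the 10 members, 14 windows in all. SLC7A2, SLC7A3 and SLC7A11 had none. A match lay in 3 of the 14 windows, 1 each of SLC7A1, SLC3A2 and SLC1A5, and in 3.62% of all 35116 windows. SLC3A2 and SLC1A5 have 3 windows each. The 3 stretches of 30 bases are shown on the gene's strand with the match in capitals, which for SLC3A2 reads on the opposite strand.
SLC7A1 (chr13:29595663-29595692, minus strand): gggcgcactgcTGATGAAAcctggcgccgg
SLC3A2 (chr11:62881719-62881748, plus strand): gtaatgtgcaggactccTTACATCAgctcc
SLC1A5 (chr19:46784893-46784922, minus strand): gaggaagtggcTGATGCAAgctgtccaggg

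In SLC7A1 the match began 8 bases into the transcript. In SLC3A2 it began 38 bases into the transcript from 1 of 3 alternative starts, and in SLC1A5 it began 97 bases before the most downstream of 3 alternative starts. A match is a run of letters and not a shown binding site. An element outside the windows would not be found, so a missing match does not show that a gene lacks one. The motif TGACNNNGC, the core of the antioxidant response element through which NRF2 acts, was present in 5 of the 14 windows (1 each of SLC7A1, SLC7A5, SLC7A6, SLC3A2 and SLC1A5) and in 13.3% of all windows. The single windows of SLC7A1, SLC7A6 and SLC7A5 were rich in CG dinucleotides, with 49, 48 and 44 of them, against a median of 14 over all windows.

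Over the members, SLC7A3 and SLC7A11 were more than 2-fold lower in ΔTUT4/7, SLC7A2, SLC7A8, SLC38A2 and SLC7A1 were lower by less, and SLC3A2 was slightly higher. At a false discovery rate (FDR) under 0.05 in edgeR, 1 member was called higher (SLC3A2) and 6 were called lower (SLC7A1, SLC7A2, SLC7A3, SLC7A8, SLC7A11 and SLC38A2), while SLC7A5, SLC7A6 and SLC1A5 were not called. Of all tested genes 57.7% were called, 28.6% higher and 29.0% lower. At 2-fold or more, 0 members were called higher and 2 lower, against 5.90% and 12.4% of all tested genes. The WT and ΔTUT4/7 libraries did not overlap for 7 of the 10, and for 62.7% of all tested genes. The median log2 fold change was -0.21 over the members and -0.02 over all tested genes. Since the same contrast chose the members, nothing is read from these counts.

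**Figure D1:**
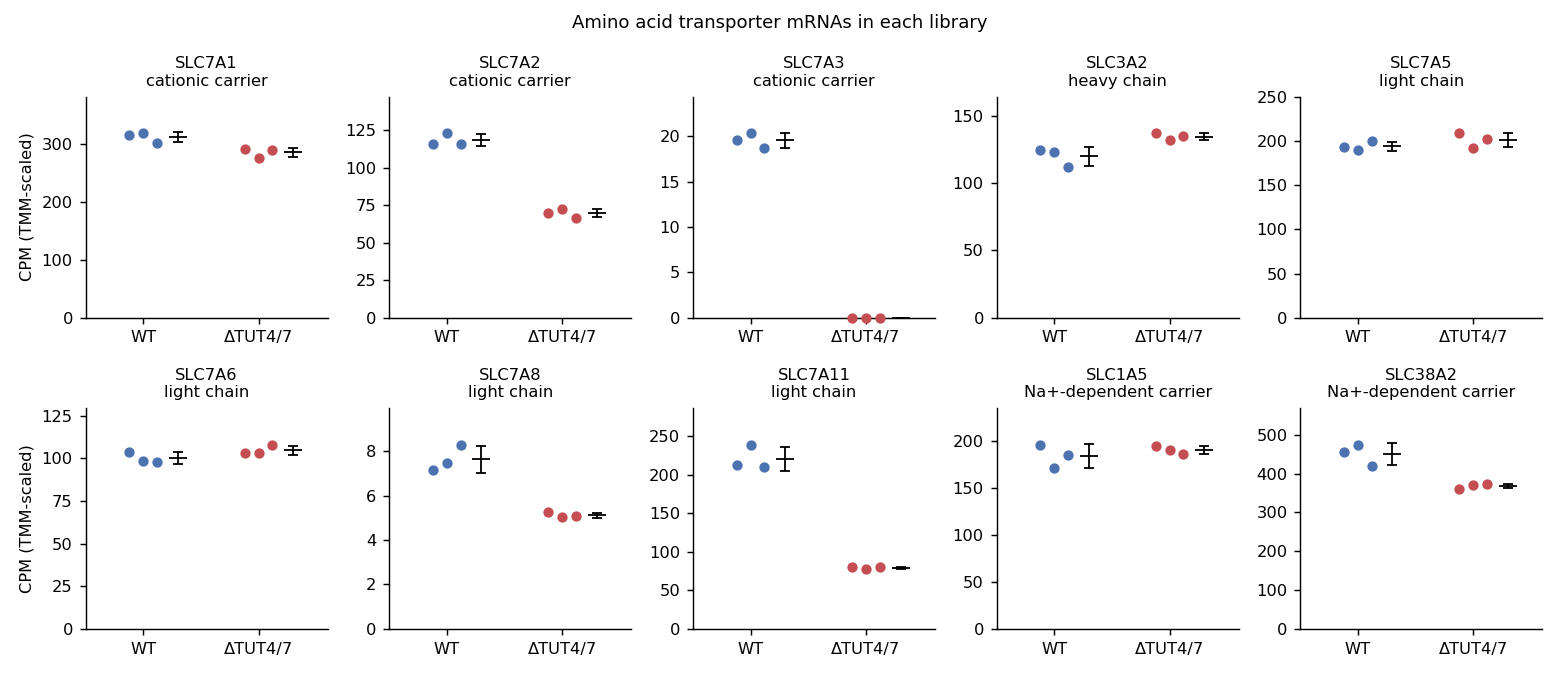
CPM after TMM scaling (y axis, from 0) for each of the 10 genes in the 3 WT (blue) and 3 ΔTUT4/7 (red) libraries, with the mean and SD beside the points. SLC7A3 is at 0 in all 3 ΔTUT4/7 libraries, and SLC7A11 lies at 78.1 to 80.4 CPM there against 210 to 239 CPM in WT.

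Among the cationic carriers, SLC7A3 (chromosome X, 70925579 to 70931125, minus strand, hg38) was detected in WT only. It had 385, 527 and 573 counts in WT replicates 1, 2 and 3, which is 19.6, 20.3 and 18.7 CPM, and 0 counts in each ΔTUT4/7 library. With a floor of 3 counts over the ΔTUT4/7 group, or 0.0422 CPM, its level was at least 461-fold lower. The floor covers counting error only. CAT-3 is best known from brain and embryonic tissue, and its level in WT was low beside that of SLC7A1.

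SLC7A2 (chromosome 8, 17497088 to 17570573) encodes CAT-2, whose splice forms differ in affinity for arginine. It had 116, 123 and 116 CPM in the WT libraries and 70.0, 72.5 and 66.8 CPM in those labelled ΔTUT4/7. All ΔTUT4/7 libraries lay below all WT libraries, and the log2 fold change was -0.76 ± 0.05 (SE), a ratio of 0.589. Every other gene annotated across it was under 1 CPM.

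SLC7A1 (chromosome 13, 29509414 to 29595688) encodes CAT-1, the widely expressed cationic carrier of dividing cells. It had 315, 318 and 302 CPM in WT and 291, 276 and 289 CPM in ΔTUT4/7. The groups did not overlap, but the difference was small, with a log2 fold change of -0.13 ± 0.04, and the call was lost without ΔTUT4/7 replicate 2 (-0.10).

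Per kilobase of exon, which allows levels of different genes to be added, the 3 cationic carriers summed to 64.1 ± 1.83 CPM per kb in WT and 45.9 ± 0.822 in ΔTUT4/7. SLC7A1 made up 63.2% ± 0.469 of that sum in WT and 80.8% ± 1.02 in ΔTUT4/7. The share of SLC7A2 was 23.4% ± 0.442 and 19.2% ± 1.02, and that of SLC7A3 was 13.4% ± 0.165 in WT. Thus the sum was lower in every ΔTUT4/7 library (45.1 to 46.7) than in any WT library (62.2 to 65.8), with SLC7A1 its main part in both groups.

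SLC3A2 (chromosome 11, 62856102 to 62888875), the heavy chain also known as CD98, had 125, 123 and 112 CPM in WT and 137, 132 and 135 CPM in ΔTUT4/7. All ΔTUT4/7 libraries lay above all WT libraries. The log2 fold change was 0.16 ± 0.05, and the call was lost without WT replicate 3 (0.11), under library size alone (0.05) and with genes of a mean count under 50 left out (0.10).

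SLC7A11 (chromosome 4, 138164097 to 138242349) encodes xCT, the light chain that exchanges glutamate for cystine, the source of cysteine for glutathione. It had 213, 239 and 210 CPM in WT and 80.4, 78.1 and 80.4 CPM in ΔTUT4/7. This was the largest difference among the 9 members detected in both groups, with a log2 fold change of -1.47 ± 0.05, or 2.77-fold lower. The antisense transcript SLC7A11-AS1 overlaps it and stood at 5.27 CPM in WT and 2.19 in ΔTUT4/7. No statement on read strand was found, so reads of the pair cannot be told apart where they overlap.

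SLC7A5 (chromosome 16, 87830023 to 87869507) encodes LAT1, which brings leucine and other large neutral amino acids into growing cells. Its 194, 190 and 200 CPM in WT and 209, 193 and 203 CPM in ΔTUT4/7 overlapped. The log2 fold change was 0.05, with a 95% interval (1.96 SE each side) of -0.04 to 0.14. A change beyond that interval was not seen, which is not evidence of an equal level.

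SLC7A6 (chromosome 16, 68264516 to 68301823) encodes y+LAT2, which exports arginine in exchange for neutral amino acids. It had 104, 98.7 and 98.1 CPM in WT and 103, 103 and 108 CPM in ΔTUT4/7, again overlapping, with a log2 fold change of 0.06 and an interval of -0.03 to 0.16. It overlaps SLC7A6OS on the opposite strand, which had 20.9 and 25.0 CPM in the groups.

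SLC7A8 (chromosome 14, 23125295 to 23183674) encodes LAT2, a light chain best known from kidney and gut epithelium. It was the least abundant member in WT, at 7.13, 7.46 and 8.28 CPM, and had 5.24, 5.05 and 5.06 CPM in ΔTUT4/7. The groups did not overlap and the log2 fold change was -0.58 ± 0.13, with the widest error of the 9 members detected in both groups.

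Among the 4 light chains, SLC7A11 accounted for 29.2% ± 1.92 of the summed CPM per kb in WT and 12.7% ± 0.177 in ΔTUT4/7. SLC7A5 accounted for 52.3% ± 1.64 and 64.8% ± 0.791. The 4 light chains together stood at 4.16 ± 0.244 times SLC3A2 in WT and 3.09 ± 0.0458 times in ΔTUT4/7. With the length of the longest transcript instead of all exons these ratios were 1.97 ± 0.116 and 1.48 ± 0.0215, because the annotated exons of SLC3A2 cover 6.39 kb and its longest transcript 2.84 kb. The ratio was lower in every ΔTUT4/7 library with either length.

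SLC38A2 (chromosome 12, 46358188 to 46372773), the SNAT2 carrier that is induced when cells lack amino acids, had 456, 474 and 419 CPM in WT and 361, 370 and 373 CPM in ΔTUT4/7. The groups did not overlap, and the log2 fold change was -0.29 ± 0.05. SLC1A5 (chromosome 19, 46774883 to 46788594), the glutamine exchanger ASCT2, had 196, 171 and 185 CPM in WT and 195, 191 and 186 CPM in ΔTUT4/7. These overlapped, with a log2 fold change of 0.06 and an interval of -0.04 to 0.15.

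The order of levels per kilobase of exon in WT was SLC38A2 (69.0 ± 4.34 CPM per kb), SLC1A5 (55.2 ± 3.79), SLC7A5 (40.8 ± 1.05), SLC7A1 (40.5 ± 1.12), SLC7A11 (22.8 ± 1.67), SLC3A2 (18.8 ± 1.09), SLC7A2 (15.0 ± 0.487), SLC7A6 (13.2 ± 0.409), SLC7A3 (8.61 ± 0.350) and SLC7A8 (1.27 ± 0.0993). Neighbours in this order had separate values in all 3 libraries except SLC7A5 and SLC7A1, whose values overlapped. In ΔTUT4/7, SLC1A5 (57.3 ± 1.39) and SLC38A2 (56.6 ± 0.919) overlapped at the top. Below them came SLC7A5 (42.3 ± 1.70), SLC7A1 (37.1 ± 1.05), SLC3A2 (21.1 ± 0.370), SLC7A6 (13.8 ± 0.369), SLC7A2 (8.82 ± 0.363), SLC7A11 (8.26 ± 0.140) and SLC7A8 (0.854 ± 0.0181), each apart from its neighbours. SLC7A11 stood above SLC7A6 and SLC7A2 in WT and below both in ΔTUT4/7, also with the length of the longest transcript. The place of SLC3A2 depended on the length used. With its longest transcript it was at 42.3 CPM per kb in WT and 47.4 in ΔTUT4/7, above SLC7A11 in both groups. Other places changed with that length too. SLC7A6 (15.9) passed SLC7A2 (15.5) in WT, and SLC38A2 (76.8) passed SLC1A5 (66.3) in ΔTUT4/7.

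**Figure D2:**
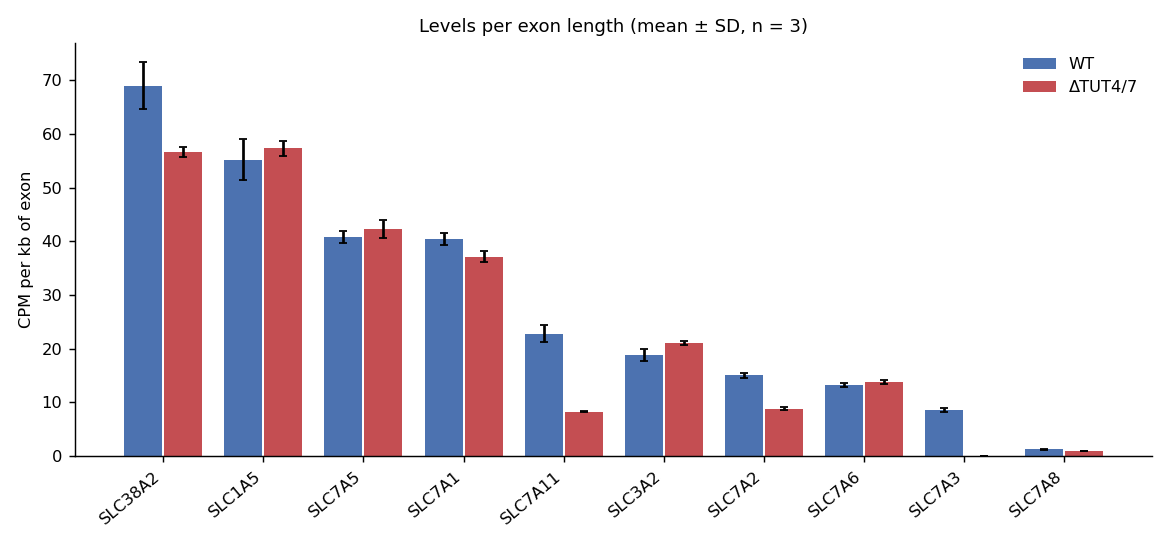
Mean CPM per kb of exon (bars from 0, error bars SD, n = 3) for the 10 genes in WT (blue) and ΔTUT4/7 (red), ordered by the WT level. SLC38A2 leads in WT at 69.0 CPM per kb, SLC7A11 stands at 22.8 in WT and 8.26 in ΔTUT4/7, and SLC7A3 has no bar in ΔTUT4/7.

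A list of 50 other amino acid transporters was drawn up by family, without regard to how they moved, to compare with the members. Of these, 37 were in the table and 34 were tested. In edgeR at the FDR, 13 were higher, 11 were lower and 10 were not called, with a median log2 fold change of 0.06. The shares over all tested genes were 28.6% higher and 29.0% lower. Those called include genes of few counts, given at the end, that passed the count filter only through the group where they were higher. In absolute size the median was 0.67 for the 34 other transporters, 0.23 for the members and 0.47 for all tested genes. Every member averaged at least 159 counts a library, whereas some of the other transporters averaged under 50, so their count levels were unlike. These 3 medians are a description, and their difference was not tested.

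SLC6A9 (GlyT1, a glycine carrier) fell from 33.6 ± 0.166 to 5.99 ± 1.23 CPM (log2 fold change -2.46 ± 0.11, adjusted p 9.11e-14 in edgeR). SLC1A4 (ASCT1), the serine and alanine carrier that is the closest relative of SLC1A5, fell from 28.4 ± 1.91 to 11.0 ± 1.18 CPM (-1.36 ± 0.09, adjusted p 4.31e-11). SLC38A1 (SNAT1), the close relative of SLC38A2, had 656 ± 26.4 and 645 ± 6.54 CPM and was not called (-0.02 ± 0.04, adjusted p 0.665). So both pairs of related sodium-dependent carriers held a gene called lower and a gene not called. Whether the members of a pair differed in their change was not tested.

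Among carriers of organelles, SLC38A7, a lysosomal glutamine and asparagine exporter, rose from 14.5 ± 1.93 to 33.9 ± 2.95 CPM (1.22 ± 0.09, adjusted p 9.63e-10 in edgeR). SLC25A22, a mitochondrial glutamate carrier, rose from 10.5 ± 1.07 to 23.2 ± 0.606 CPM (1.15 ± 0.09, adjusted p 6.52e-10). SLC25A15, which exchanges ornithine and citrulline across the mitochondrial membrane, fell from 61.0 ± 2.23 to 27.1 ± 0.796 CPM (-1.17 ± 0.06, adjusted p 5.25e-13). The groups did not overlap in these 3 genes, but that was a condition for naming them and is not a further result.

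**Figure D3:**
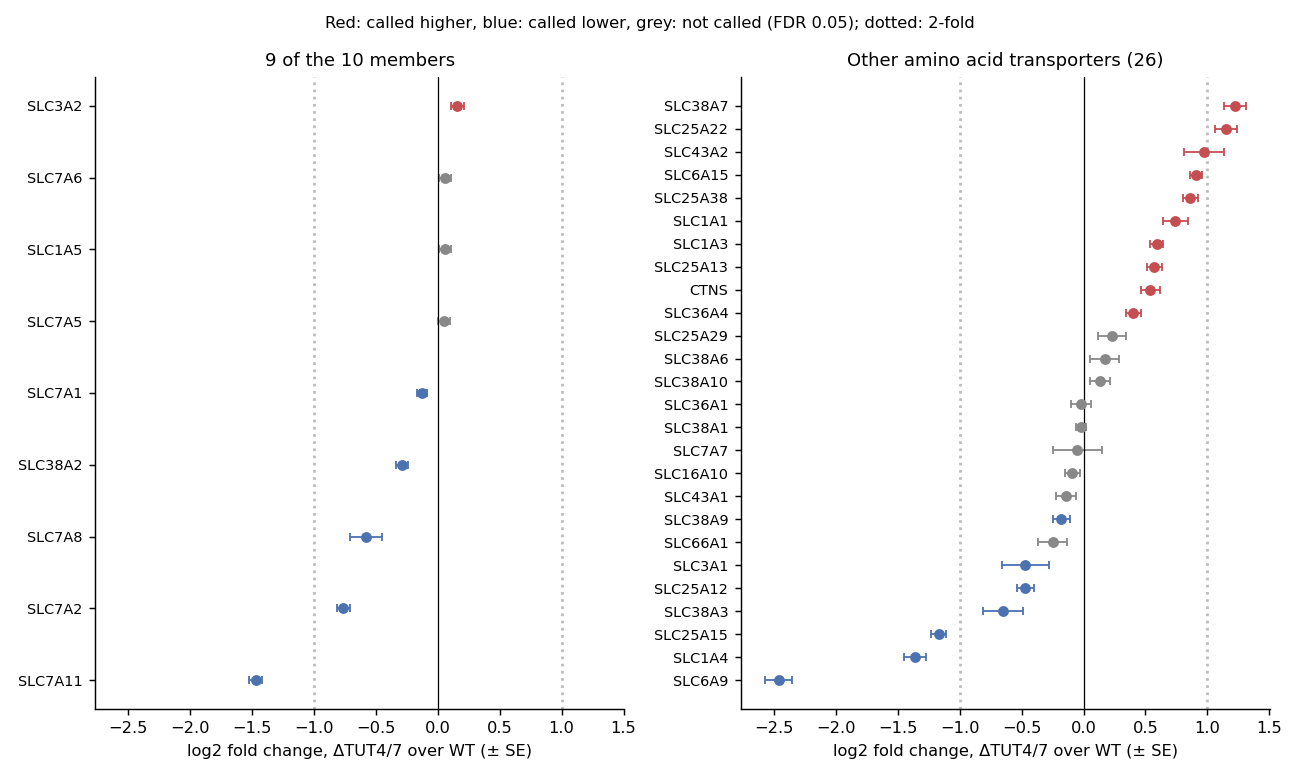
Log2 fold change of ΔTUT4/7 over WT with its SE (x axis) for 9 of the members (left) and for 26 other amino acid transporters averaging at least 50 counts a library (right). Red genes were called higher, blue lower and grey not called at an FDR under 0.05, and dotted lines mark 2-fold. SLC7A3 is left off because it had no counts in ΔTUT4/7.

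The response to amino acid shortage was examined next, as it regulates several of the carriers. Of 24 genes of the GCN2 and ATF4 arm, all tested, 3 were higher, 17 lower and 4 not called in edgeR, with a median log2 fold change of -0.53. The list was written with earlier results of these libraries known, so its direction is not independent evidence. ATF4 itself fell from 602 ± 12.6 to 474 ± 3.90 CPM (-0.35 ± 0.04, adjusted p 2.65e-07). The 4 largest changes of sufficient count were falls of CHAC1 (-2.91 ± 0.21), which breaks down glutathione, VLDLR (-1.88 ± 0.08), a lipoprotein receptor, ASNS (-1.67 ± 0.05), which makes asparagine, and ALDH1L2 (-1.37 ± 0.05), a mitochondrial folate enzyme. Their adjusted p ran from 2.62e-17 to 4.26e-08.

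The 3 higher genes of this list were GCN1, which activates GCN2, EIF2S1, the translation factor that GCN2 phosphorylates, and PPP1R15A, which helps to remove that phosphate, with log2 fold changes of 1.15 ± 0.05, 0.62 ± 0.05 and 0.25 ± 0.07. EIF2AK4, which encodes GCN2, had 80.3 ± 1.36 and 80.2 ± 3.75 CPM. The members with a TGATGNAA match shown above lay at -0.13 (SLC7A1), 0.16 (SLC3A2) and 0.06 (SLC1A5) on the log2 scale. The median was -0.53 over the 24 response genes. Members without a match in the windows searched lay at 0.05 (SLC7A5), 0.06 (SLC7A6), -0.58 (SLC7A8) and -0.29 (SLC38A2). Sequence outside those windows was not searched, so the members cannot be sorted by whether they hold the element. SLC7A2 (-0.76), SLC7A11 (-1.47) and SLC7A3 (no counts in ΔTUT4/7) had no window to search. The element was not searched for in that list. Whether the transporters differ from the rest of the response was not tested.

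Genes of arginine and ornithine metabolism, both substrates of the cationic carriers, were listed as well. Of 15 genes, 13 were tested. Over all tested genes, 28.6% were called higher and 29.0% lower in edgeR. In this list 7 were higher, 2 lower and 4 not called. The 7 were ASL and NOS3, whose enzymes make or use arginine itself, CPS1, ODC1 and OAT of the urea cycle and ornithine use, and AZIN1 and AZIN2, which are regulators rather than enzymes. CPS1, which starts the urea cycle, rose from 10.0 ± 0.432 to 56.8 ± 3.22 CPM (2.50 ± 0.07, adjusted p 8.95e-17). ODC1, which turns ornithine into putrescine, rose from 99.6 ± 2.61 to 278 ± 11.3 CPM (1.48 ± 0.05), and OAT, which turns ornithine towards glutamate, from 103 ± 2.44 to 189 ± 5.84 CPM (0.87 ± 0.05).

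ASS1, which makes argininosuccinate on the way from citrulline to arginine, fell from 30.3 ± 2.47 to 13.4 ± 0.812 CPM (-1.17 ± 0.08, adjusted p 1.27e-10 in edgeR). The next enzyme, ASL, rose by 0.37 ± 0.11 (adjusted p 0.00840), a call that was lost under library size alone and without ΔTUT4/7 replicate 1. AZIN2 and AZIN1, which protect ornithine decarboxylase from its inhibitor, rose by 0.51 ± 0.11 and 0.19 ± 0.05, and the AZIN1 call was lost under library size alone (adjusted p 0.180). ARG1 fell by 2.36 on the log2 scale on 247 counts in WT and 43 in ΔTUT4/7, and NOS3 rose on 19 and 51 counts. Both are named only to complete the count, after their values were seen. NOS3 passed the count filter (largest count above 12) only through the ΔTUT4/7 libraries, so its call as higher is a description only.

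The expressed genes measured around SLC7A3 did not share its loss. Within 1 Mb of its start, 16 genes averaged at least 50 counts a library, with a median log2 fold change of -0.08 and a range of -0.60 to 2.43. Of these, 4 were higher, 6 lower and 6 not called in edgeR. Over all tested genes, 28.6% were called higher and 29.0% lower. When only the 15575 genes averaging at least 50 counts were fitted, 11106 were called. The neighbour calls are therefore a description. On the side of lower coordinates, IGBP1 fell from 46.0 ± 1.68 to 31.8 ± 1.68 CPM (-0.53 ± 0.06), PDZD11 by 0.34 and DLG3 by 0.44 on the log2 scale, and KIF4A had a log2 fold change of -0.05 (adjusted p 0.389).

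On the other side, the nearest was RPS23P8, 31.8 kb away, a ribosomal protein pseudogene whose reads are uncertain, with 209 ± 36.4 and 187 ± 18.9 CPM. SNX12, a sorting nexin, rose by 0.39 ± 0.06 and FOXO4, a forkhead factor 165 kb from SLC7A3, rose from 22.1 ± 2.90 to 120 ± 4.33 CPM (2.43 ± 0.07, adjusted p 1.11e-14). MED12 had a log2 fold change of -0.11 ± 0.05 (adjusted p 0.0535). Within 200 kb, only 5 other genes of any count were in the table, all on this side, and all 5 were detected in both groups. The nearest of them not named as a pseudogene was SNX12, 142 kb away. On the side of lower coordinates the nearest expressed gene was DLG3, 486 kb away, so the closer flank there was not measured.

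**Figure D4:**
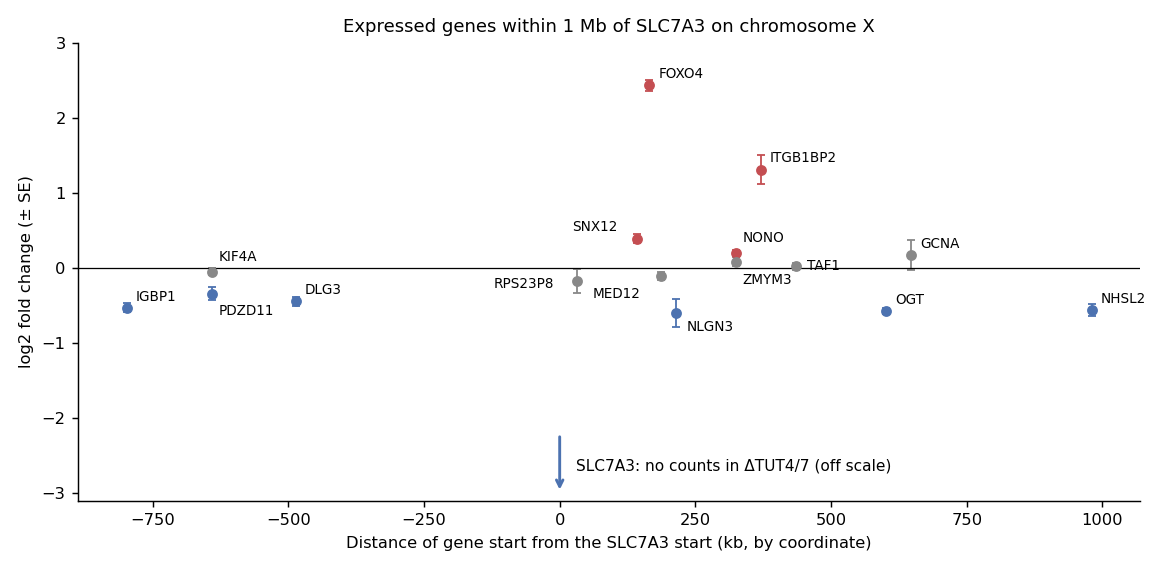
Log2 fold change with SE (y axis) of the 16 expressed genes within 1 Mb of the SLC7A3 start against their distance from it in kb (x axis). Red genes were called higher, blue lower and grey not called. FOXO4 stands at 2.43, the others lie between -0.60 and 1.31, and the arrow marks SLC7A3, which had no counts in ΔTUT4/7.

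Some other members lay among genes that differed in the same direction, and some did not. The 10 neighbours of SLC7A2 within 1 Mb had a median log2 fold change of -0.29, with 0 called higher and 6 lower. Over all tested genes, 28.6% were called higher and 29.0% lower. The 13 neighbours within 2 Mb had a median of -0.80, against -0.76 for SLC7A2. The part of the region in the level of SLC7A2 was not tested. The 7 neighbours of SLC7A1 had a median of 0.41, with 4 called higher and 3 lower. The 6 of SLC7A11 had a median of 0.27, with 2 called higher and 1 lower. Both medians were on the other side of 0 from the gene itself. With 2 genes within 500 kb, however, the median beside SLC7A11 was -0.38. For the remaining 6 members the medians ran from -0.07 to 0.36. Beside the called ones they were 0.16 for SLC3A2, -0.07 for SLC7A8 and -0.02 for SLC38A2. The genes themselves lay at 0.16, -0.58 and -0.29. Over all 15575 genes averaging at least 50 counts the median was 0.06.

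The genes most like SLC7A3 over the 6 libraries, by the Euclidean distance of log2 CPM, were CT45A6 (distance 0.25), H3C7 (0.47), CT45A10 (0.86), SAGE1 (1.01) and ARMCX2 (1.11). Their WT levels were 21.1, 23.2, 14.9, 13.4 and 20.0 CPM, and they had 0, 0, 1, 0 and 3 counts in ΔTUT4/7. CT45A6, CT45A10, SAGE1 and ARMCX2 lie on chromosome X, as SLC7A3 does, but not near its position at 70925579. CT45A6, CT45A10 and SAGE1 lie together between 135794685 and 135913061, and ARMCX2 starts at 101655281. H3C7 is a histone gene of chromosome 6. CT45A6, CT45A10 and H3C7 have near-identical copies, so the division of reads among them is uncertain. This likeness rests on the difference between the groups alone and is a description.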

How the data were processed

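Per the study's methods, the authors aligned paired-end reads with STAR 2.7.3a to hg38 and quantified Ensembl release 102 genes in Partek 10.0.22. The deposited table gives estimated counts (expectation-maximisation, not normalized), which share reads between similar or overlapping genes. Between 45.2% and 50.0% of values in a library were not whole (beyond 1e-09). A further deposited table holds the authors' own fold changes and p-values and was not used.

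Counts were rounded. Genes whose largest count exceeded 12 were tested with edgeR 4.0.16 in R 4.3.3 (TMM scaling, quasi-likelihood test, group as only term, Benjamini-Hochberg over 23952 genes). Genes not tested held 0.0960% of counts. The steps were tested on simulated data. SE is derived from the F statistic. In bulk RNA, fewer cells expressing a gene and less RNA per cell cannot be told apart. P-values weigh the group difference against the spread between these libraries and say nothing of the spread between independent knockout clones. No library pair agreed within sampling noise (chi-square per degree of freedom 2.41 to 10.1 within groups).

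Exon lengths came from GENCODE release 44, whose coordinates matched 9 of the 10 members. SLC3A2 differed in both ends. Ends are printed 1 base below the table's stop column. Members, lists and named genes were chosen with earlier results of these data known. Named genes were TUT4, TUT7, the members, other transporters called at 2-fold with no overlap, ATF4 and the 4 largest changes of its list, called genes of arginine and ornithine metabolism, the nearest 4 neighbours of SLC7A3 on each side and its 5 most similar genes, requiring on average at least 50 counts a library in the lists and neighbours. Other genes are named to complete a count or as a relative of a member, after their values were seen. DESeq2 1.42.0 and limma 3.58.1 served as alternatives. Protein sequences were not analysed here.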

Additional observations from a re-analysis of the deposited data

How the results depend on the processing

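The number of genes called in each list and over all genes, the split of the members and the log2 fold change of each member or named gene were recomputed under 14 alternatives: RLE scaling, library size alone, other count filters, DESeq2, limma-voom, limma on log2(CPM + 1), the replicate number as a block and each library left out. The splits of the other lists, counts without overlap and neighbour calls were not. No total of calls, both directions together, moved by more than 1.5 times. Of 140 recomputed member values, 131 kept direction and call, 4 lost the call and 5 changed sign. The sign changes were all in members not called: library size alone gave -0.06 for SLC7A5, -0.05 for SLC7A6 and -0.06 for SLC1A5, and a minimum mean count of 50 gave -0.01 for SLC7A5 and -0.01 for SLC1A5. Library size alone moved the median of all genes by -0.11, and with it 0 members were called higher and 6 lower, where TMM gave 1 and 6. The split was also 0 and 6 with a minimum mean count of 50 and without WT replicate 3, and 1 and 5 without ΔTUT4/7 replicate 2. Of 448 values of other named genes, 438 kept direction and call, 3 lost the call, 7 gained it and 0 reversed.

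The members called numbered 6 to 7 with a library left out and 7 with the replicate block, under which 13678 of all genes were called and MED12 was called as well (adjusted p 0.0347 in edgeR). MED12 was also called without WT replicate 3 (adjusted p 0.0275), and ASL lost its call without ΔTUT4/7 replicate 1 (adjusted p 0.105). Same-numbered libraries did not deviate together (r of 0.052, -0.011 and -0.022 across genes), beside -0.09 to 0.095 for libraries of unlike number. Deviations were taken from the mean of 3 libraries, so these values cannot settle whether same-numbered libraries shared a preparation. With the longest transcript as length, 85 of 90 pairs of members kept their order of level, and SLC3A2 moved most. Neighbour medians moved by over 0.1 within 500 kb or 2 Mb for SLC7A2, SLC7A3, SLC7A5, SLC7A8, SLC7A11, SLC1A5 and SLC38A2. SLC7A8 rests on 588 and 365 counts and SLC7A3 on 1485 and 0, so a residual SLC7A3 level under 0.0422 CPM was not detectable at this depth.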

Other observations

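Transporters with few counts were left out of the named comparisons but hold several contrasts. SLC1A6, a glutamate carrier of neurons, had 0 counts in WT and 34 over the ΔTUT4/7 libraries. SLC1A2, the main glial glutamate carrier, had 13 and 68 counts, and SLC7A10, another light chain of SLC3A2, had 14 and 49. SLC38A4 had 86 and 7 counts, and SLC25A2, a relative of SLC25A15, had 31 and 8. These 5 genes were called in edgeR and were named after their values were seen. Each passed the count filter (largest count above 12) only through the group where it was higher. The filter thus favoured a difference, so these calls are a description and not support for one.

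The acidic carriers SLC1A1 and SLC1A3, which take up glutamate and aspartate, were both higher in ΔTUT4/7, from 12.4 ± 1.21 to 20.8 ± 1.56 CPM and from 66.8 ± 1.49 to 101 ± 4.23 CPM, with adjusted p of 8.37e-07 and 1.82e-09 in edgeR. SLC6A15, a neutral amino acid carrier, rose from 150 ± 6.13 to 281 ± 9.60 CPM. CTNS, which exports cystine from the lysosome, rose from 17.1 ± 0.359 to 24.8 ± 2.04 CPM, while SLC7A11, which imports cystine at the cell surface, was lower. SLC7A7, another light chain that exchanges cationic amino acids, had 3.04 ± 0.169 and 2.90 ± 0.687 CPM and was not called.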
